A study of Mus musculus with 59 samples.

Results

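Neurospheres from the forebrain and from the hindbrain of mouse embryos that carry the histone mutation H3.3 K27M were compared by where H3K27me3 was found and how many reads it gathered. All the libraries with this mark from K27M neurospheres were used, 3 of forebrain (NSF-A, NSF-B and NSF-C) and 3 of hindbrain (NSH-A, NSH-B and NSH-C), out of 59 samples in the study. Their lists of enriched stretches, called islands, were merged over the autosomes into 9269 regions. The cultures were made from e15.5 Nestin-cre; H3f3aLSL-K27M-Tag/+ embryos and were kept in medium for neural precursors. Cre under the Nestin promoter, which is active in neural precursors, switches on the tagged mutant allele in cells of both brain regions. All 6 libraries were labelled female, and the letters A, B and C correspond to experiments 1, 2 and 3 in both regions. The labels do not say whether the cultures came from separate embryos, and the spread behind each p-value may in part be technical. Beside them stood 3 hindbrain libraries of Nestin-cre; H3f3aLSL-WT-Tag/+ neurospheres, which carry the tagged wild-type histone. There were also brainstem tumours, all with the alleles Nestin-creERT2, LSL-PDGFRαV544ins and Trp53flox/flox, of which 6 carried H3f3aLSL-K27M-Tag/+ and 5 carried H3f3aLSL-WT-Tag/+. H3K27me3 of wild-type forebrain neurospheres was not analysed here, so each difference below is one between brain regions within K27M.

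H3K27me3 is deposited by Polycomb repressive complex 2 and marks developmental genes that are kept silent. Lysine-to-methionine mutation of histone H3 at this position inhibits the complex, and cells with the mutant lose the mark over much of the genome while keeping it at many CpG-rich promoters. Along the neural tube, transcription factors such as Emx2 and Lhx2 in the telencephalon and the Irx and Hox families further back set regional identity, and their genes are classical Polycomb targets where they are not expressed.

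The contrast described below lay in part at 5 loci, whose promoters are shown here to give the sequence on which the mark lay. Sequences are from RefSeq (GRCm38.p6, coordinates of that build, which is not the build of the islands) and run from 250 bases before to 50 bases after the most upstream start in that table. Capitals mark each CG dinucleotide, the only motif searched, which reads the same on both strands. Lhx2 (chr2:38339031-38339330, plus strand) and Emx2 (chr19:59458440-59458739, plus strand) were more marked in hindbrain, and Irx3 (chr8:91801605-91801904, minus strand), Nr2f1 (chr13:78198824-78199123, minus strand) and Otx2 (chr14:48667595-48667894, minus strand) in forebrain.
Lhx2: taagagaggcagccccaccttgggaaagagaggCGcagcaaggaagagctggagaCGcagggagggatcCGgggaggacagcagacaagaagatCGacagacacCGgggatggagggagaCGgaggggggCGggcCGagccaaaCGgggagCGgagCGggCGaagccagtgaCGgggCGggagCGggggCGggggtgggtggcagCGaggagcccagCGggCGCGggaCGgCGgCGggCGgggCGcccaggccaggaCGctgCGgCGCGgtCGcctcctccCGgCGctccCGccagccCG
Emx2: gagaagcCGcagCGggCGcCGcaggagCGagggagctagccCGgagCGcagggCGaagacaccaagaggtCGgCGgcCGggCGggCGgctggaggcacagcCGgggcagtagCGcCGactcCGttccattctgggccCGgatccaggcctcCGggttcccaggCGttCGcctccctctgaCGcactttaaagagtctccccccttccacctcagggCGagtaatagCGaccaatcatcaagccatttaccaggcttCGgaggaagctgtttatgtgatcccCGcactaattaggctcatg
Irx3: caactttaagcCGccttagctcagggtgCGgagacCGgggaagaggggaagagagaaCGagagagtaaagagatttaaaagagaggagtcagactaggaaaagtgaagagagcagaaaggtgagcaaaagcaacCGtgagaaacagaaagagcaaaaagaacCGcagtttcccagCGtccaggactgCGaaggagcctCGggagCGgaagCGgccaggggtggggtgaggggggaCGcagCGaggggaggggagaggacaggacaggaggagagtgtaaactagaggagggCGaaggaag
Nr2f1: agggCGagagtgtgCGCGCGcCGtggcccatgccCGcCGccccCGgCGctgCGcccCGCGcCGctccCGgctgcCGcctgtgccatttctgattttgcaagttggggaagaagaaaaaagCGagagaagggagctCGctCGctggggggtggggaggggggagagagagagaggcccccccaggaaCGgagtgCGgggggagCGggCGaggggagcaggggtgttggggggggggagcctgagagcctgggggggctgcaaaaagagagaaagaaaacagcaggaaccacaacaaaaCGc
Otx2: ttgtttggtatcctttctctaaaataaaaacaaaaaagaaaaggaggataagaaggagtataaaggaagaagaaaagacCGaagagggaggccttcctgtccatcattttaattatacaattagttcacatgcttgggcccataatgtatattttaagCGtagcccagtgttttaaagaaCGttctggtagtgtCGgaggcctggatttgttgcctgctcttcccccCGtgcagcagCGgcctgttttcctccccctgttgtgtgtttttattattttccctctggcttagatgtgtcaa
The promoter of Lhx2 held 34 CG dinucleotides, that of Emx2 26, that of Nr2f1 23, that of Irx3 14 and that of Otx2 6. The table held 4 starts for Otx2 and 2 each for Lhx2 and Nr2f1, and those further downstream are not shown. Of all autosomal promoters in the table, 7.77% held at least as many as Lhx2, 17.4% as many as Emx2, 22.2% as many as Nr2f1, 37.6% as many as Irx3 and 56.9% as many as Otx2. Over the listed genes a promoter was found for 73 of 99, with a median of 20 CG dinucleotides against 7 over all 25748 autosomal promoters. Genes more marked in forebrain (13 of 19 found) had a median of 23 and genes more marked in hindbrain (19 of 22 found) a median of 20.

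The forebrain lists held between 3775395 and 4671583 reads in autosomal islands and the hindbrain lists between 4376553 and 5321143. The total depth of the libraries is unknown, because a list holds only reads inside islands. On the autosomes the marked length was 40.9 ± 1.47 Mb for forebrain against 42.7 ± 4.71 Mb for hindbrain (SD over 3 libraries each), a difference within the spread (two-sided exact permutation test, p = 0.7, smallest possible 0.1). The hindbrain lists held more and shorter islands, 6760 ± 803 against 5140 ± 244 (SD, n = 3). The groups did not overlap (exact permutation test, p = 0.1, the smallest possible). Hindbrain islands also lay in more merged regions, 4912 to 6546 per library against 4264 to 4527 in forebrain. The median island was 5.27 kb ± 0.643 long in forebrain and 3.93 kb ± 0.416 in hindbrain (SD, n = 3), again with no overlap. The smallest listed island held 21 to 32 reads in forebrain and 17 to 23 in hindbrain. Replicates differed from each other by more than counting noise, with a chi-square per degree of freedom of 9.75 to 16.9 within forebrain and of 14.8 between hindbrain replicates 1 and 2. Hindbrain replicate 3 stood further apart, at 36.9 and 32.8 from the other hindbrain libraries. The wild-type hindbrain lists of experiments 1, 2 and 3 held 6199003, 6931048 and 9072944 reads in autosomal islands. In that of experiment 3, 99.1% of island reads lay on autosomes, against 67.4% and 69.3% in the other wild-type lists. The K27M lists had 64.9% to 74.5%. Wild-type reads given below are not scaled for these differences.

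Of the 9269 merged regions, 2584 held an island in all 6 libraries, and these gathered 90.5% to 94.3% of the autosomal island reads of each library. A set of 299 regions was marked in all 3 forebrain libraries and in no hindbrain library (3.23% of the regions, median width 7.40 kb). The reverse held for 739 regions (7.97%, median width 5.40 kb). The excess of hindbrain-only regions depended on the length of the lists: when each library was reduced to its 4860 islands with most reads, 409 forebrain-only and 460 hindbrain-only regions remained. It also depended on hindbrain replicate 2, without which 318 forebrain-only and 1151 hindbrain-only regions were counted. A region in no list may still hold reads below the caller's minimum, so "only" refers to listed islands.

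**Figure D1:**
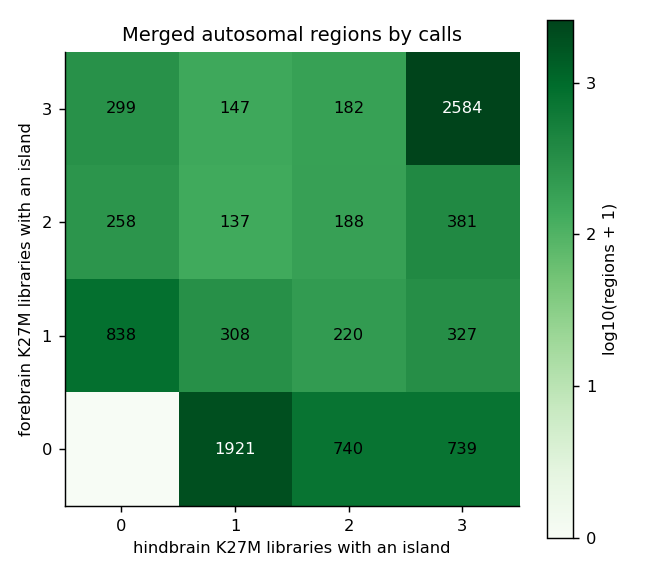
Number of merged autosomal regions by how many of the 3 hindbrain K27M libraries (horizontal axis) and of the 3 forebrain K27M libraries (vertical axis) held an H3K27me3 island; shading is log10(regions + 1). The corner with islands in all 6 libraries holds 2584 regions, the forebrain-only corner 299 and the hindbrain-only corner 739.

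Reads were compared in the 2584 regions with an island in every library. By edgeR's quasi-likelihood test, without pairing by experiment, 939 (36.3%) differed at an adjusted p under 0.05. Forebrain was higher in 451 (17.5%) and hindbrain in 488 (18.9%). With experiment as a block, 482 and 508 were called, of which 420 and 462 were also called without it. The median change of all tested regions was 0.04 on the log2 scale (forebrain over hindbrain). Past a log2 difference of 2, 68 regions were higher in forebrain and 51 in hindbrain. Scaled reads (CPM, island reads of a region scaled to all reads the library has in the common regions) did not overlap between the groups in 1319 of the tested regions (51.0%).

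**Figure D2:**
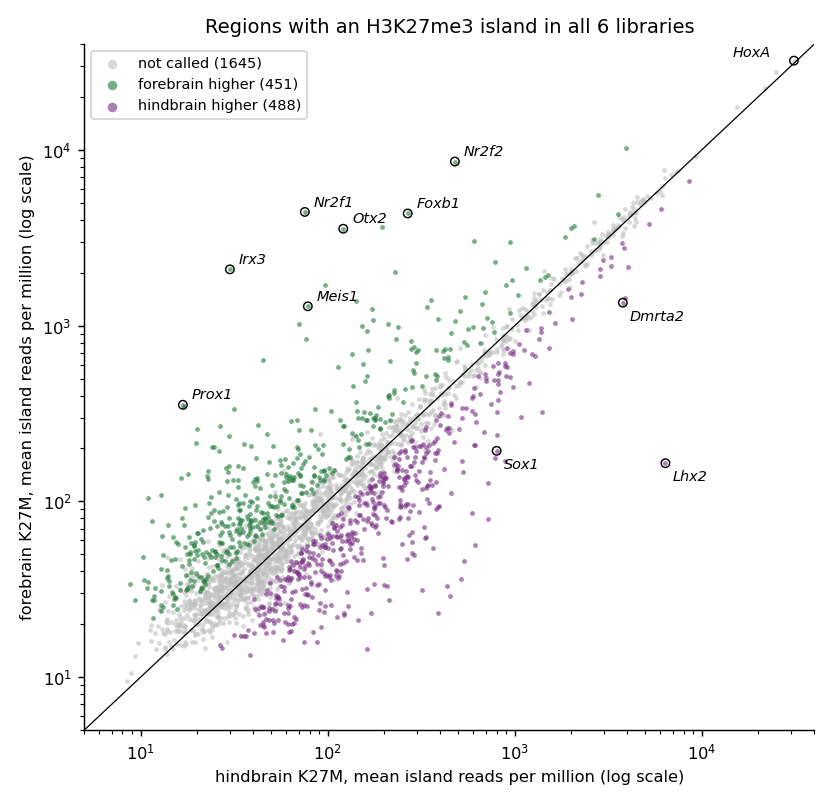
Mean H3K27me3 island reads (CPM) in hindbrain (horizontal, log scale) and forebrain (vertical, log scale) K27M neurospheres, 1 point for each of 2584 regions with an island in all 6 libraries; the line marks equal values and circles mark named loci. Nr2f1, Nr2f2, Irx3, Otx2 and Foxb1 lie far above the line and Lhx2 far below it, while the HoxA cluster, among the strongest regions, lies on it.

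Regional identity loci were named from the known mm9 positions of 98 loci in 6 lists, with 5 kb on each side. A region can reach past its gene and take in neighbours. Of the 98 loci, 95 held an island in some library and 88 lay in a region marked in all 6. Forebrain was higher at 17 of these 88 (19.3%) and hindbrain at 16 (18.2%), close to the shares over all regions. Of the 98 loci, 2 were forebrain-only and 4 hindbrain-only, against 3.23% and 7.97% of all merged regions. Members of the same list moved both ways, so the lists are described by member.

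Emx2, a homeobox gene of the cortical primordium, was hindbrain-only. Its region (chr19:59509201-59551800, mm9) held 19685, 17195 and 17488 reads in hindbrain replicates 1, 2 and 3 and was listed with no island in all 3 forebrain libraries. The 3 hindbrain libraries were close to each other there.

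Lhx2, a LIM homeobox gene that specifies cortex, held 928, 517 and 507 reads in forebrain and 31315, 27252 and 27780 in hindbrain (chr2:38175801-38231200). All hindbrain libraries were far above all forebrain libraries, with a log2 fold change of -5.27 (SE 0.20, edgeR adjusted p = 8.26e-06). The wild-type hindbrain neurospheres also had an island at each of these genes, with 9741, 11318 and 13886 reads at Emx2 and 11712, 15169 and 18736 at Lhx2. The mark on them in hindbrain cultures was therefore present without the mutant histone.

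Smaller hindbrain excesses were found at other telencephalic patterning genes. Nr2e1, an orphan nuclear receptor of forebrain stem cells, was hindbrain-only with few reads, 1013, 1874 and 1384 over chr10:42281201-42315400. Dmrta2, needed for the cortical hem and medial cortex, had 7247, 4036 and 4699 reads in forebrain and 17821, 16441 and 16750 in hindbrain, a log2 fold change of -1.49 (SE 0.15, adjusted p = 0.000227). The groups did not overlap at Dmrta2, although it was marked in every forebrain library as well.

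Pax6, a homeobox gene of dorsal progenitors that is also used in the hindbrain, had low values, with 1852, 1153 and 780 reads in forebrain and 4837, 3412 and 2628 in hindbrain (log2 -1.32, SE 0.30, adjusted p = 0.0102). Its call was lost when experiment 2 was left out of both groups (adjusted p = 0.11). Sp8, a zinc finger factor of the anterior forebrain, had 10487, 6553 and 8389 reads against 19495, 17203 and 17913 (log2 -0.91, SE 0.10, adjusted p = 0.000388). At Emx1, the paralog of Emx2, reads were 4596, 3378 and 4210 against 8066, 7002 and 7000 (log2 -0.65, SE 0.09, adjusted p = 0.00109). Fezf2, which directs subcortical projection neurons, had 8833, 6065 and 7500 against 13988, 13335 and 11235 (log2 -0.59, SE 0.13, adjusted p = 0.00845), and no longer passed without experiment 1 (adjusted p = 0.0522). Six3 and Six6, homeobox genes of the anterior forebrain and eye field, were higher in hindbrain by 0.35 and 0.37 on the log2 scale. Six3 lost its call under 5 of 16 alternative settings, and Six6 lost it without experiment 1 (adjusted p = 0.111). The Six6 value is that of a region 143 kb wide. With reads shared out to the gene with 5 kb on each side, Six6 had -0.09 on the log2 scale and the groups overlapped.

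In all, 8 of the 17 forebrain patterning loci marked in every library were higher in hindbrain (47.1% against a background of 18.9%) and 3 of the 20 were hindbrain-only, against 7.97% of all merged regions. Another 5 of the 17 were higher in forebrain (29.4% against a background of 17.5%), so both directions were above the background, and 4 did not pass the test, namely Otx1, Nkx2-1, Fezf1 and Vax1. The median over the 17 was -0.23 on the log2 scale, against 0.04 over all tested regions.

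The genes of this list with more mark in forebrain were Nr2f1, Otx2, Nr2f2, Wnt8b and Barhl2. Nr2f1 and Nr2f2 encode the COUP-TF nuclear receptors, which are graded within the cortex and are also expressed in more caudal brain. Nr2f1 held 21553, 15490 and 14842 reads in forebrain and 371, 201 and 471 in hindbrain (chr13:78296801-78357400), a log2 fold change of 5.87 (SE 0.27, adjusted p = 1.45e-05). None of the 3 hindbrain libraries had an island within 5 kb of the gene itself, so their reads lay elsewhere in the region. Nr2f2 held 37047, 29863 and 33102 against 3124, 1744 and 1710 (chr7:77459001-77525800; log2 4.16, SE 0.20, adjusted p = 1.52e-05). Neither gene's groups came near each other. Islands of wild-type hindbrain libraries held 0, 748 and 953 reads at Nr2f1 and 351, 7860 and 9743 at Nr2f2, so the replicates of that group differed widely at Nr2f2.

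Otx2, which is needed for forebrain and midbrain and marks the border with the hindbrain, had 14167, 12890 and 14210 reads in forebrain and 244, 961 and 326 in hindbrain (chr14:49258001-49305400; log2 4.88, SE 0.59, adjusted p = 0.000577). In all 3 pairs the forebrain culture carried more of the mark at Otx2. Unscaled reads of the wild-type hindbrain libraries spread there from 708 through 3513 to 8330, in experiments 1, 2 and 3. Wnt8b, a Wnt ligand of the cortical hem, held 5976, 5321 and 5703 reads in forebrain and 2425, 1885 and 3079 in hindbrain (log2 1.43, SE 0.14, adjusted p = 0.000215). Barhl2, a homeobox gene of the diencephalon, had 23679, 19436 and 21389 against 17730, 11529 and 8499 (log2 1.00, SE 0.21, adjusted p = 0.00731); hindbrain replicate 3 was the lowest, and the call was lost without experiment 2 (adjusted p = 0.0877).

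**Figure D3:**
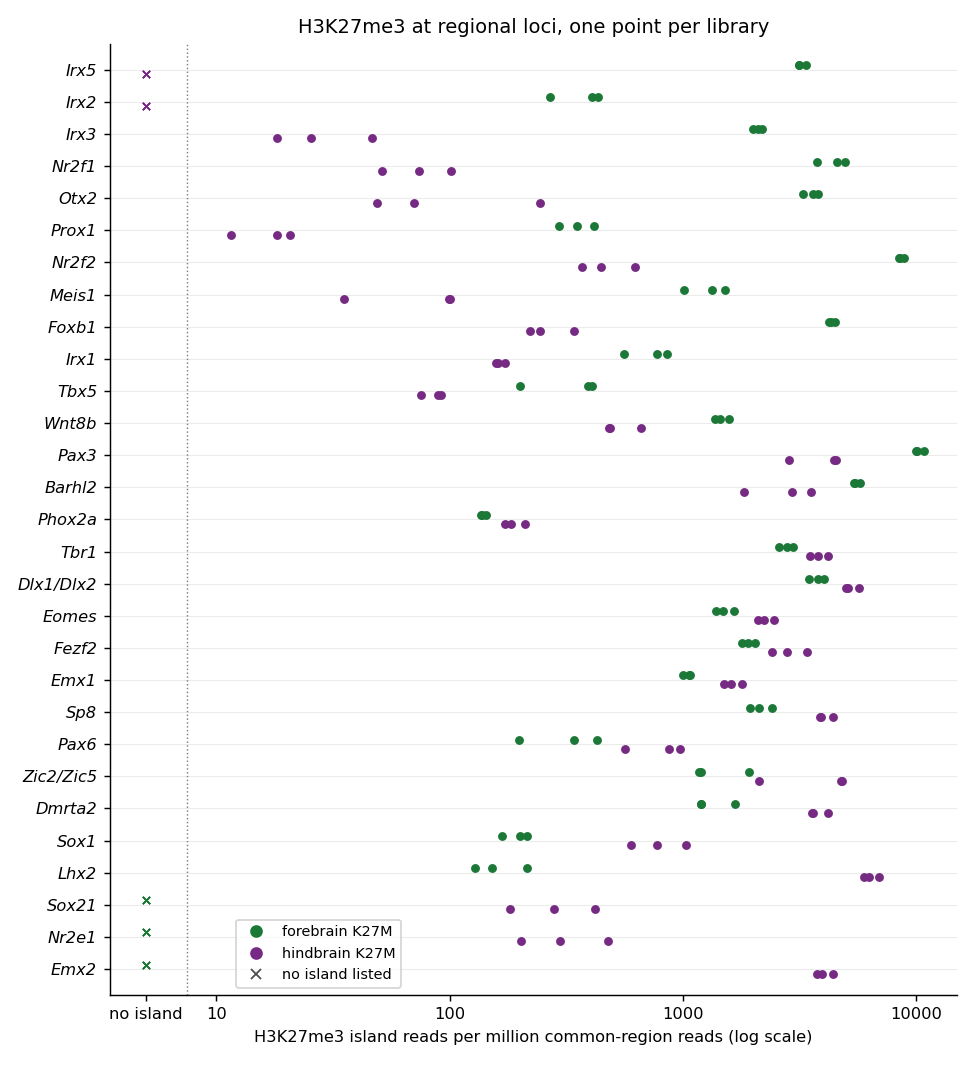
H3K27me3 island reads (CPM, log scale) at the loci described by sample, 1 point per library, forebrain K27M in green and hindbrain K27M in purple; crosses left of the dotted line are libraries with no island. Irx5 and Irx2 have no island in hindbrain and Emx2, Nr2e1 and Sox21 none in forebrain, and at Lhx2, Irx3 and Nr2f1 the groups lie far apart.

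Among the 24 hindbrain and spinal loci the contrast lay in the Iroquois genes and Meis1. The Iroquois homeobox genes sit in a pair of clusters and pattern the neural tube behind the anterior forebrain. Irx3 held 8690, 7362 and 8259 reads in forebrain and 91, 100 and 216 in hindbrain (chr8:94311601-94338200), the largest forebrain excess of all tested regions (log2 6.12, SE 0.33, adjusted p = 2.86e-05). Irx5, in the same cluster, held 13586, 11433 and 12431 reads in forebrain over chr8:94868201-94903800 and was listed with no island in any hindbrain K27M library. Between these genes lay 4 further forebrain-only regions, so the mark covered several parts of the cluster in forebrain alone.

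The second cluster gave the same direction with lower values. Irx2 was forebrain-only, with 1778, 1471 and 1066 reads (chr13:72758001-72778400), and Irx1 held 3364, 2890 and 2210 in forebrain and 863, 636 and 732 in hindbrain (log2 2.15, SE 0.16, adjusted p = 7.5e-05). In wild-type hindbrain neurospheres islands at Irx2 and Irx5 were listed in experiment 3 alone, with 288 and 252 reads. That list also held the most autosomal island reads of the wild-type lists. Meis1, a Hox cofactor, held 5793, 5141 and 3996 reads in forebrain and 495, 396 and 164 in hindbrain (log2 4.04, SE 0.39, adjusted p = 0.000205). A further region at Meis1, chr11:18899601-18924200, was forebrain-only with 2061, 1704 and 1282 reads. Every forebrain library exceeded every hindbrain library at these genes. Phox2a, a homeobox gene of hindbrain motor and noradrenergic neurons, was the only member of this list that was higher in hindbrain; it had 591, 483 and 545 reads against 1056, 681 and 853 (log2 -0.45, SE 0.12, adjusted p = 0.0235) and lost its call under 6 of 16 settings.

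Of the 22 loci of the list marked in every library, 13.6% were higher in forebrain and 4.55% in hindbrain, both below the backgrounds of 17.5% and 18.9%. Of all 24, 2 were forebrain-only (Irx2 and Irx5), against 3.23% of all merged regions, and 0 were hindbrain-only, against 7.97%. The other 18 loci of the list did not pass the test. They include all 4 Hox clusters, which code position from hindbrain to tail, and hindbrain determinants such as Egr2, Atoh1 and Ptf1a. The Hox clusters were the strongest H3K27me3 domains among the loci: HoxA held 32154 ± 1104 CPM in forebrain and 31079 ± 2278 CPM in hindbrain (SD, n = 3). All 39 Hox genes lay wholly under islands in all 6 K27M and all 3 wild-type hindbrain libraries. Log2 changes were 0.05 (SE 0.07) at HoxA, 0.19 (SE 0.08) at HoxB, 0.14 (SE 0.08) at HoxC and 0.05 (SE 0.07) at HoxD, with adjusted p from 0.0969 to 0.637. HoxA and HoxD were called under none of the 16 alternative settings either, whereas HoxB was called higher in forebrain under 5 and HoxC under 2.

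Telencephalic neuron programmes showed small hindbrain excesses. Of 11 loci, 5 were higher in hindbrain (45.5% against a background of 18.9%) and the other 6 did not pass, with a median of -0.24 on the log2 scale. Eomes and Tbr1, T-box factors of cortical intermediate progenitors and early cortical neurons, were among the 5. Eomes held 7173, 5045 and 5480 reads in forebrain and 11153, 9625 and 9729 in hindbrain (log2 -0.58, SE 0.10, adjusted p = 0.00276). Tbr1 held 12795, 9472 and 10164 against 19024, 16427 and 16224 (log2 -0.46, SE 0.09, adjusted p = 0.00587). The Dlx1/Dlx2 pair, which specifies forebrain interneurons, held 15069, 13649 and 15017 against 25364, 22349 and 23213 (log2 -0.48, SE 0.09, adjusted p = 0.00407). Gsx2, which specifies ventral telencephalic progenitors, had -0.34 and lost its call under 5 of 16 settings. Dlx5/Dlx6, Lhx6, Lhx8, Bcl11b, Neurog2 and Isl1 lay between -0.24 and 0.06 and did not pass.

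**Figure D4:**
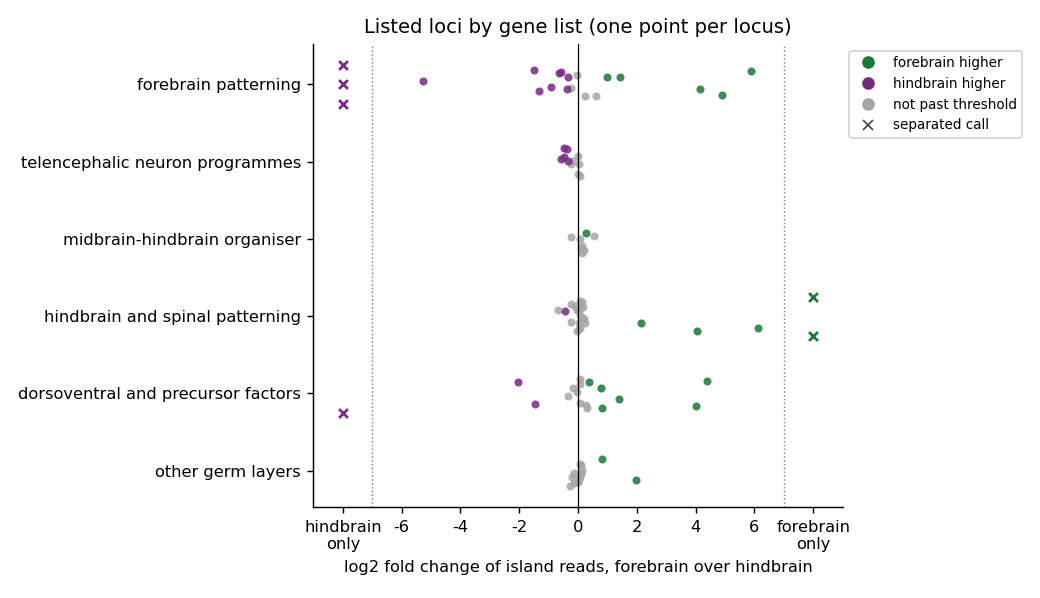
Log2 fold change of H3K27me3 island reads, forebrain over hindbrain, for each listed locus (1 point per locus, rows are lists, vertical jitter has no meaning); crosses beyond the dotted lines are loci with islands in all libraries of 1 region and none of the other. Forebrain patterning loci lie on both sides, telencephalic neuron loci at or left of 0, and most hindbrain and spinal loci near 0 apart from the Irx genes and Meis1.

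Dorsoventral and precursor factors also moved in both directions, with 6 of 16 loci marked in every library higher in forebrain (37.5% against a background of 17.5%) and 2 higher in hindbrain (12.5%, below the background of 18.9%). Of its 21 loci, 1 was hindbrain-only, against 7.97% of all merged regions. Prox1, a homeobox gene of neurogenic precursors, had 1530, 1414 and 1160 reads in forebrain and 58, 81 and 85 in hindbrain (log2 4.40, SE 0.25, adjusted p = 3.06e-05). Foxb1, a forkhead gene of the mammillary region, midbrain and hindbrain, had 18663, 15232 and 16721 against 1103, 956 and 1580 (chr9:69594401-69635800; log2 4.02, SE 0.17, adjusted p = 1.14e-05). At both genes the groups were far apart. Pax3, a paired-box gene of the dorsal neural tube, had 43602, 36598 and 39433 against 22144, 17750 and 13277 (log2 1.39, SE 0.17, adjusted p = 0.000561). Ebf3, Pax7 and Nkx6-1 were also higher in forebrain, by 0.82, 0.78 and 0.37 on the log2 scale. Nkx6-1 lost its call under 4 of 16 settings and Ebf3 without experiment 2 (adjusted p = 0.06).

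SoxB genes, which maintain neural precursors or balance their differentiation, differed among themselves. Sox21 was hindbrain-only, with 905, 1651 and 1302 reads, and Sox1 held 930, 570 and 787 in forebrain and 5151, 3029 and 2793 in hindbrain (log2 -2.04, SE 0.20, adjusted p = 0.000227). Sox2, the general neural precursor factor, was listed with no island in any of the 6 libraries, as was Sox9. Olig1/Olig2 had an island in 1 forebrain library alone. The Zic2/Zic5 pair held 8365, 3978 and 4711 reads in forebrain and 24092, 18726 and 9871 in hindbrain (log2 -1.45, SE 0.33, adjusted p = 0.0104). Its hindbrain replicate 3 was well below the other hindbrain libraries, and the call was lost without forebrain replicate 2 or without experiment 2.

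Genes of the midbrain-hindbrain organiser and of other germ layers served for comparison. In the organiser list 1 of 8 loci, En1, was higher in forebrain (12.5% against a background of 17.5%). Its change was 0.28 on the log2 scale, and it lost the call under 7 of 16 settings. Higher in hindbrain were 0 of the 8, against a background of 18.9%. Gbx2, a gene of the anterior hindbrain, had 0.54 (SE 0.21) and did not pass (adjusted p = 0.0812). Of 14 loci of other germ layers, such as Gata4, Hand2, Pdx1 and Myod1, 12 did not pass. Forebrain was higher at 14.3% of them and hindbrain at 0%, both below the backgrounds of 17.5% and 18.9%. Tbx5, a T-box gene of heart and forelimb, held 1707, 1383 and 792 reads in forebrain and 459, 297 and 415 in hindbrain (log2 1.96, SE 0.27, adjusted p = 0.00101), and Sox17, an endoderm gene, was higher in forebrain by 0.80 but lost its call under 4 of 16 settings.

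Large differences also lay outside the listed loci. In forebrain the strongest were chr15:25208601-25231600 with 1082, 1280 and 1594 reads against 61, 32 and 143 (log2 4.32), and chr3:86328401-86383600 with 14951, 12894 and 14445 against 165, 1577 and 719 (log2 4.22). They were followed by chr5:106979001-107009800, which lay 91 kb from Barhl2 (log2 4.14), chr3:51879201-51915000 (log2 3.86) and chr3:29901401-29919600 (log2 3.83). In hindbrain the strongest were chr12:31067801-31100800 with 72, 87 and 106 reads in forebrain and 2025, 1742 and 1506 in hindbrain (log2 -4.09), and chr1:76918201-76956000 with 111, 109 and 117 against 2266, 2302 and 1494 (log2 -3.96). After these came chr5:15479401-15503000 (log2 -3.84), chr3:100667801-100705600 (log2 -3.71) and chr1:14284001-14306600 (log2 -3.53). These 10 were chosen among regions that passed the edgeR test, so passing is no further result. Their adjusted p was at most 0.00362.

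Of the forebrain-only regions, those with most reads after Irx5 were chr2:63902201-63944000 with 4523, 4989 and 6205 reads, chr9:69506201-69528600, 76.4 kb from Foxb1, with 3141, 2344 and 2340, chr7:144390601-144407000 at Ebf3 with 2474, 2570 and 2597, and chr14:49353001-49376600, 66 kb from Otx2, with 2200, 2351 and 2659. Over all separated regions, 4.68% of forebrain-only and 2.44% of hindbrain-only regions lay within 100 kb of a listed locus, against 3.57% of all merged regions. Beside Emx2, hindbrain-only regions with many reads were chr2:115874401-115910200 with 3172, 5534 and 5353 reads, chr14:122763801-122794800, 60.2 kb from Zic2/Zic5, with 5705, 4310 and 1677, and chr2:115673801-115696400 with 2920, 3964 and 4097.

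Libraries that took no part in choosing the separated regions were then examined. Wild-type hindbrain neurospheres held an island at 86.1% ± 3.66 of hindbrain-only regions and at 64.5% ± 10.5 of forebrain-only regions (SD, n = 3), with hindbrain-only regions ahead in 3 of 3 libraries. Their difference was 21.6 ± 13.5 percentage points, and 3 libraries allow no p below 0.25 in a sign-flip permutation. These lists covered 144.9 to 190.6 Mb of the autosomes, far more than the K27M lists, so the shares are high throughout; over all 9269 regions the share was 84.9%.

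In the 11 brainstem tumours the order was the reverse. An H3K27me3 island lay at 48.0% ± 11.5 of forebrain-only regions and at 42.3% ± 12.4 of hindbrain-only regions (SD, n = 11), a difference of -5.64 ± 4.67 percentage points (hindbrain-only minus forebrain-only). Both sets lay below the share over all 9269 regions, 57.4%. Forebrain-only regions were ahead in all tumours but 1 (two-sided exact sign-flip permutation, p = 0.00488). Within genotypes the difference was -2.34 ± 3.49 in K27M tumours (n = 6, exact p = 0.156) and -9.59 ± 1.85 in wild-type tumours (n = 5, exact p = 0.0625, the smallest possible), so in K27M tumours alone it did not exceed the spread. The forebrain-only regions are wider, at a median of 7.40 kb against 5.40 kb, and the part of width in the difference was not tested. Among the 88 forebrain-only and 121 hindbrain-only regions of at least 10 kb, a width chosen after the values were seen, the difference was -10.3 ± 7.70 (exact p = 0.00195). Tumour tissue can hold several cell types, and fewer cells with a mark cannot be told apart from less of it per cell. H3K27ac, a mark of active elements, overlapped 24.5% of forebrain-only and 22.7% of hindbrain-only regions, with 19.6% over all regions (n = 11, difference -1.78 ± 1.30, exact p = 0.00195), but this difference turned round when any 1 forebrain library was left out of the choice of regions (0.157 to 2.46). H3K4me3, a mark of promoters, overlapped 29.7% of forebrain-only and 27.5% of hindbrain-only regions in the 5 tumours with this mark, with 33.5% over all regions (difference -2.18 ± 0.599, exact p = 0.0625, the smallest possible), and this too turned round without any 1 forebrain library (0.946 to 3.49).

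**Figure D5:**
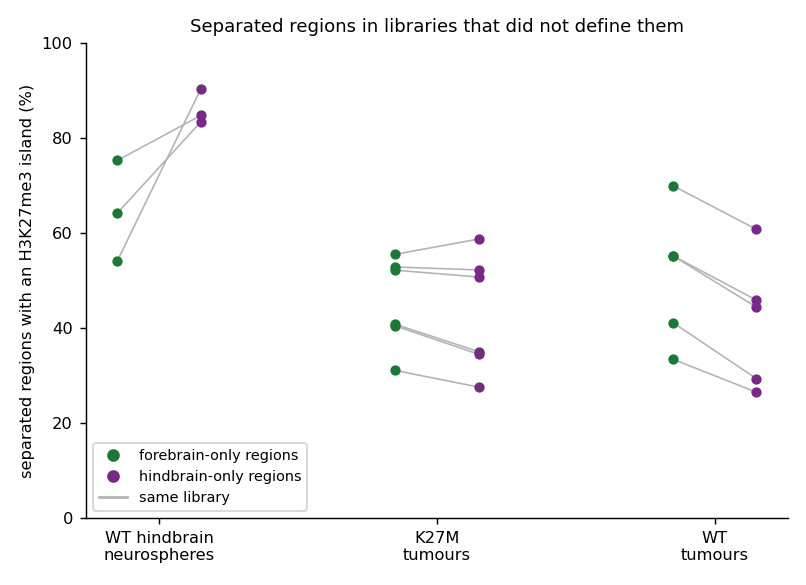
Percentage of the 299 forebrain-only (green) and 739 hindbrain-only (purple) regions that hold an H3K27me3 island in libraries not used to choose them, 1 pair of points per library, joined by a line. Hindbrain-only regions are ahead in all 3 wild-type hindbrain neurosphere libraries, and forebrain-only regions in 10 of 11 tumours.

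H3K27ac in the tumours was also counted at the listed loci, with a limit of 2 on the log2 scale that was chosen after the values were seen. Of the 10 loci that were forebrain-only or past a log2 of 2 towards forebrain, 8 held an H3K27ac peak in all 11 tumours: Nr2f1, Nr2f2, Irx1, Irx2, Irx3, Irx5, Meis1 and Prox1. The exceptions were Otx2, with a peak in no tumour, and Foxb1, with a peak in 1. None of the other forebrain-marked loci had a peak in all 11, so the count over all 19 was 8, with 3 loci at no peak. Of the 6 loci that were hindbrain-only or past a log2 of 2 towards hindbrain, 0 held a peak in all 11; Nr2e1 held one in 1 tumour, Emx2 in 3, Sox1 in 4, Lhx2 in 5 and Sox21 in 9. Over all 20 hindbrain-marked loci 0 held a peak in all 11 and 9 held none. Among the 55 loci that did not pass the test, 7 had a peak in all 11 tumours and 23 in none. H3K27me3 islands were nevertheless listed in all 11 tumours at 92 of the 98 loci, so both marks occurred at the Irx genes in bulk tumour.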

How the data were processed

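Chromatin immunoprecipitation with an H3K27me3 antibody was sequenced after addition of Drosophila S2 chromatin (source: the labels' protocols). Values were not scaled to that chromatin, so absolute amounts are not given. The submitters' processing notes name build mm9 and, among their tools, the island caller SICER 1.1, the peak caller MACS2, the aligner BWA 0.7.12 and bedtools 2.25.0. Per the file names, the islands rest on 200 bp windows and allow gaps up to 600 bp. The value used is the whole read count of each island, as deposited by the authors, 1 list per sample with no pooling. Of the deposited tumour peak lists only positions were used; they also carry the authors' -log10 q-value per peak.

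Islands of the 6 lists on the 19 autosomes were merged where they shared at least 1 bp. Read counts per region with an island in all 6 lists were tested with edgeR 4.0.16 (R 4.3.3; TMM factors, quasi-likelihood test, no block, Benjamini-Hochberg over 2584 regions, threshold 0.05). CPM values scale reads to the library's reads in these regions times its TMM factor. Counts for the 2584 regions were simulated with a dispersion of 0.0401 and 100 changed regions per fold. Of these, 82% of changes of log2 1 and 100% of changes of log2 2 were recovered, with 8 false calls. The figures describe such counts and may not hold for the real libraries, where hindbrain replicate 3 stood apart. Libraries of the same experiment deviated together from their group means (r = 0.19, 0.16 and 0.16), and the labels give the experiment, so experiments pair the samples. The main edgeR fit and the permutation tests between forebrain and hindbrain do not use this pairing. The fit with experiment as a block is an alternative. Single values were compared with exact permutation tests (SciPy 1.17.1). Alternatives were DESeq2 1.42.0, RLE factors, library totals, read and call filters, a 5 kb merge and leaving out libraries or experiments.

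The members and gene lists were chosen with earlier results of these data known. Of listed loci past the threshold, up to 12 per direction by fold and the separated ones are given by sample. Of other regions, 5 per direction by fold among those past the threshold and 5 by reads among the separated ones are given. Gene names rest on known mm9 positions to about 1 kb, not on an annotation file of that build. Some listed loci are counted but not reported here by name. Intervals of single counts were not needed; reads are not independent molecules.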

Additional observations from a re-analysis of the deposited data

How the results depend on the processing

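With experiment as a replicate block, 482 regions were higher in forebrain and 508 in hindbrain, of which 420 and 462 were also called without it, and the paired analysis changed the call of no listed locus called without it. Library totals gave 399 and 535, RLE factors 436 and 507, DESeq2 484 and 557, a minimum of 100 reads 355 and 387, and the 5 kb merge 425 and 418. Regions in at least 3 libraries with absent islands as 0 gave 683 and 1207, a forebrain share of 36.1% of calls against 48.0%; by its construction this setting tests regions that a library lacks. Leaving out 1 library gave 329 to 470 and 362 to 460, and leaving out an experiment 213 to 460 and 231 to 453 (282 and 291 without experiment 1, 213 and 231 without experiment 2), with fewer samples. Of 33 called loci, 18 kept the call under every setting that could test them (16, or 15 at Irx3 and Prox1), 15 lost it under at least 1, and 0 changed sign. With reads shared out to the gene window, 32 kept their direction, but at 3 of the 33 the groups then overlapped, Six6 among them. At Nr2f1 no fold could be computed, since none of the 3 hindbrain libraries had an island in the window. Their reads lay elsewhere in the region. Of the 55 listed loci that did not pass, 18 gained a call under at least 1 setting.

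Hindbrain-only regions numbered 460 with the same number of islands per library, 726 with at least 1 kb of island, 541 with the 5 kb merge and 796 to 1151 without 1 library; forebrain-only regions numbered 409, 300, 227 and 318 to 398. The tumour difference in H3K27me3 kept its direction under all settings (-8.92 to -3.45 without 1 library). That in H3K27ac ran from -5.37 to 2.46 without 1 library (0.906, 2.46 and 0.157 without forebrain replicates 1, 2 and 3). For H3K4me3 (5 tumours) it was -2.18, and -3.48 with the same number of islands, -2.87 with the 5 kb merge, -14.3 among regions of at least 10 kb and -5.94 to 3.49 without 1 library (2.05, 3.49 and 0.946 without forebrain replicates 1, 2 and 3). The cause was not tested. Island lists hold no reads outside islands, which limits statements on weak marks.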

Other observations

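The pair of hindbrain-only regions on chromosome 2 given above (chr2:115874401-115910200 and chr2:115673801-115696400) lies at Meis2, a TALE homeobox gene related to Meis1 and expressed in the developing telencephalon. This locus was named after its values were seen. Wild-type hindbrain islands at the locus held 3644, 3552 and 4397 reads, and H3K27ac peaks lay there in all 11 tumours. Meis1, by contrast, had 1 region marked in every library and higher in forebrain, and 1 forebrain-only region.

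Regions within 500 kb of several loci, with every region at the locus itself left out, were counted by call. Around Nr2f2 2 were higher in forebrain and 3 were forebrain-only, around Foxb1 1 and 4, and around Otx2 3 were forebrain-only. Around Lhx2 3 were hindbrain-only and 3 marked in every library did not pass the test. Around Emx2 1 was hindbrain-only, while 3 were higher in forebrain, 1 was forebrain-only and 1 did not pass. At Irx3 5 were forebrain-only and 1 did not pass, and at Barhl2 1 was higher in forebrain. At Meis1 none was counted beside its own regions, of which 1 was higher in forebrain and 1 was forebrain-only. The surroundings of Irx5, which overlap those of Irx3, held 1 higher in forebrain and 4 forebrain-only. They also held 1 higher in hindbrain, 1 hindbrain-only and 2 not called. Near Pax3 1 was higher in forebrain and 1 did not pass. Near Zic2/Zic5 2 were hindbrain-only and 1 did not pass, and near Ebf3 1 was hindbrain-only. The regions left out at Ebf3 itself leaned to forebrain: 3 were forebrain-only, 1 was higher in forebrain and 1 did not pass. These counts leave out regions marked in only some libraries of a group. They were not tested against the shares over all regions. Those are 3.23% forebrain-only and 7.97% hindbrain-only. Of the regions marked in every library, 17.5% were higher in forebrain and 18.9% in hindbrain.

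In 4 groups of 646 regions by rising mean CPM, 20.4%, 35.9%, 46.9% and 42.1% passed the test, with median absolute log2 changes of 0.38, 0.45, 0.48 and 0.27. Among regions higher in forebrain 7.98% lay within 100 kb of a listed locus, among those higher in hindbrain 5.33% and among those not called 5.90%.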
